A study of Mus musculus with 2 samples.

Results

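The stearoyl-CoA desaturases *Scd1*, *Scd2* and *Scd3* and the fatty acid desaturases *Fads1*, *Fads2* and *Fads3* were examined in single cells of mouse back skin and preputial gland (PG). The 6 genes were taken by symbol from the 32285 genes listed in both count matrices, and each symbol named 1 row. The rule that names them uses no measured value. Biopsies of back skin and whole PGs came from 3 male wild type C57BL/6 mice aged 52 weeks, for which no treatment is named. The material of the 3 mice was pooled by tissue and gave 1 library per tissue, so there are 2 libraries and no replicates. No test between the tissues was therefore possible, and tissue and library cannot be told apart. The exact 95% intervals given below hold the error of counting alone, and say nothing on differences between mice.

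Fatty acid desaturases sit in the membrane of the endoplasmic reticulum and place double bonds into fatty acyl chains, with electrons that reach them from cytochrome b5 and its reductase. The *Scd* enzymes make monounsaturated acyl-CoA from saturated acyl-CoA, which is then built into wax esters, cholesteryl esters and triglycerides. The *Fads* enzymes are front-end desaturases that act mainly on polyunsaturated chains. Sebocytes (SEB) fill with such neutral lipids and release them by rupture, in the sebaceous gland (SG) of the hair follicle (HF) as in the PG. Loss of *Scd1* is known to cause atrophy of the SG in the mouse.

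All members lie on chromosome 19 (GRCm38, the build named mm10 in the submitters' processing notes), in 2 groups of neighbours. *Scd3* (44203269 to 44244016, plus strand), *Scd2* (44293674 to 44306864, plus) and *Scd1* (44394455 to 44407879, minus) fall with the related gene *Scd4* within 204.6 kb. *Fads3* (10041569 to 10060110, plus), *Fads2* (10062765 to 10101746, minus) and *Fads1* (10182888 to 10196877, plus) fall within 155.3 kb. The genes of a group are similar in sequence, and the kit named for both libraries reads transcript 3′ ends. Shared stretches were therefore looked for. In their longest GENCODE transcripts, the *Scd* members shared between 6.21% and 11.2% of all 31-base words with another *Scd* gene, and the *Fads* members at most 0.769% with another *Fads* gene. In the last 500 bases of each transcript, 0 of 470 words were shared. A read from these ends could thus be told apart within its family. Reads from other parts of the transcripts are not covered by this check.

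Upstream sequence is shown for *Scd3* and *Fads3*, the members for which it was held and lay mostly outside annotated exons. RefSeq windows around the gene start (GRCm38.p6) were held for 3 of the 6 members, the third being *Fads2*. The *Fads2* window overlaps an annotated exon of the gene and is not printed. The bases before the annotated start are given 5′ to 3′, at chr19:44203038-44203268 (plus strand) for *Scd3* and chr19:10041298-10041547 (plus strand) for *Fads3*. Capitals mark the CCAAT box (CCAAT) and the GC box (GGGCGG) on either strand.
Scd3: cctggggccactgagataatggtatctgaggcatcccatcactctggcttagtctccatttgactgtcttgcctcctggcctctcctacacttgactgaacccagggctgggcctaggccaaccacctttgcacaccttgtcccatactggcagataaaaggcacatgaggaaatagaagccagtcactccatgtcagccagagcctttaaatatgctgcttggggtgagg
Fads3: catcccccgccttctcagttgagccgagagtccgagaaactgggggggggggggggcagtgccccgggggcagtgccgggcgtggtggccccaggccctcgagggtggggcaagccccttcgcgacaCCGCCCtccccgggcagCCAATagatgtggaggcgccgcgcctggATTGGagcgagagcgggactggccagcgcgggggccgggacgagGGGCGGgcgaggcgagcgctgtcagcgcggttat
The *Fads3* window held a CCAAT box and a GC box on each strand, and *Scd3* held neither. The *Fads2* window, which overlaps an annotated exon, held 1 GC box 186 bases before the RefSeq start. The CCAAT box is present in 33.8% and the GC box in 32.7% of 32851 promoter windows. The TATA box (TATAAA, in 12.4% of windows) and a sterol response element (TCACNCCAC, in 1.05%) were found in none of the 3. These matches describe letters in a short window and do not mark sites.

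Unique molecular identifiers (UMIs) were counted per gene and barcode. Cells were barcodes with 500 or more genes, 1000 or more UMIs and no more than 10% of UMIs from mitochondrial genes: 8899 of 9131 barcodes in skin (median 2386 UMIs) and 4699 of 5361 in PG (median 2729 UMIs) met all 3 limits. The labels name the same kit for both libraries, but their barcode lists differ in length (6794880 in skin and 737280 in PG, 77142 on both). The 2 libraries were thus not counted against the same barcode list. In PG, 309839 barcodes held UMIs, more than the 77142 on both lists, so most of them are not on the skin list. The named kit is therefore uncertain for both libraries, and which kit made each was not tested. That both read 3′ ends rests on the kit named alone. A difference in making or counting cannot be told apart from the tissue in any ratio of PG over skin. In both libraries together, 0 of the barcodes with at least 500 genes and 1000 UMIs were shared. Cells were sorted into classes by marker genes, and none of the 6 desaturases was used for this. The level of a gene in a class is its UMIs summed over the cells of the class, per 1000000 of all UMIs of these cells (CPM). Reads from 3′ ends carry no gene length, so CPM is compared here between classes for 1 gene and not between genes.

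Sebocyte-like cells had to hold at least 2 of 8 sebocyte markers and at least 25 marker UMIs per 10000 UMIs, with *Awat2*, *Cidea* or *Pparg* among them. These were 767 cells in PG (pSEB, 4153752 UMIs, median 5129 per cell) and 19 cells in skin (sSEB, 100363 UMIs, median 4426). The gate is a range of a marker share: 117 PG and 9 skin cells lay within 25% under the limit, and 78 and 1 within 25% above it. *Cidea*, a lipid droplet protein, stood at 2890 CPM in sSEB and 566 in pSEB, against 2.12 and 35.4 in all other cells. *Awat2*, a wax ester synthase, stood at 701 CPM in pSEB (129 of 767 cells) and 79.7 in sSEB (8 UMIs in 6 cells). *Cidec* had 0 UMIs in sSEB. In pSEB the gate marker with most UMIs was *Mgst1*, with 29970 in all 767 cells and 1100 CPM in other PG cells. *Acsbg1* stood at 15.6 CPM in pSEB and 13.6 in other PG cells. Of sebocyte genes kept out of the gate, *Dgat2l6* (0.481 and 7.92 CPM) and *Far2* (0.241 and 0.54) were not higher in pSEB, and *Awat1* had 0 UMIs. *Elovl3* (5.3 and 0.27) and *Apoc1* (1718 and 915) were higher. Basal keratinocyte markers had a median of 20.39 UMIs per 10000 in sSEB and 12.68 in pSEB, and suprabasal markers 88.38 and 58.37. The medians of the fibroblast, T cell, macrophage and endothelial lists were 0.00 in both, and all 4 adipocyte markers were at 0 UMIs. Free RNA was read from barcodes with 1 to 50 UMIs (1121807 UMIs in skin, 1971694 in PG).

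*Scd1*, the main stearoyl-CoA desaturase of skin, was higher in sebocytes than in the other cell classes of both tissues. In sSEB it had 718 UMIs, a level of 7154 CPM (6640 to 7697), and in pSEB 13685 UMIs, a level of 3295 CPM (3240 to 3350). The free RNA of PG held 3281 CPM of *Scd1*, near the level in pSEB, and that of skin 121 CPM. Per cell, the lowest, median and highest values were 281, 4723 and 14082 CPM in the 19 sSEB and 0, 1691 and 22894 CPM in the 767 pSEB. All 19 sSEB and 703 of 767 pSEB held *Scd1* UMIs, so the tissues overlapped over most of their range. Of the 718 *Scd1* UMIs in sSEB, 154 lay in 1 cell and 140 in another. The level in pSEB was lower by a log2 ratio of -1.12 (-1.23 to -1.01). This ratio depends on which cells are called sebocytes. With Leiden clusters in place of the gate it turned to 0.65. The skin cluster with sebocyte markers held 60 cells at 3410 CPM and the PG cluster held 327 cells at 5345 CPM. This PG cluster is the one led by *Awat2*, with 5 sebocyte markers. A PG cluster of 383 cells at 1465 CPM, whose best list was the sebocyte list with 1 marker, was left out of this ratio. The skin cluster was led by immunoglobulin genes beside *Cidea*, and its sebocyte list was the best of all lists with 6 markers. With the gate lowered from 25 to 12.5 marker UMIs per 10000 (35 sSEB) the ratio was -0.62, and with a mitochondrial limit of 5% (10 sSEB) it was -1.66.

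**Figure D1:**
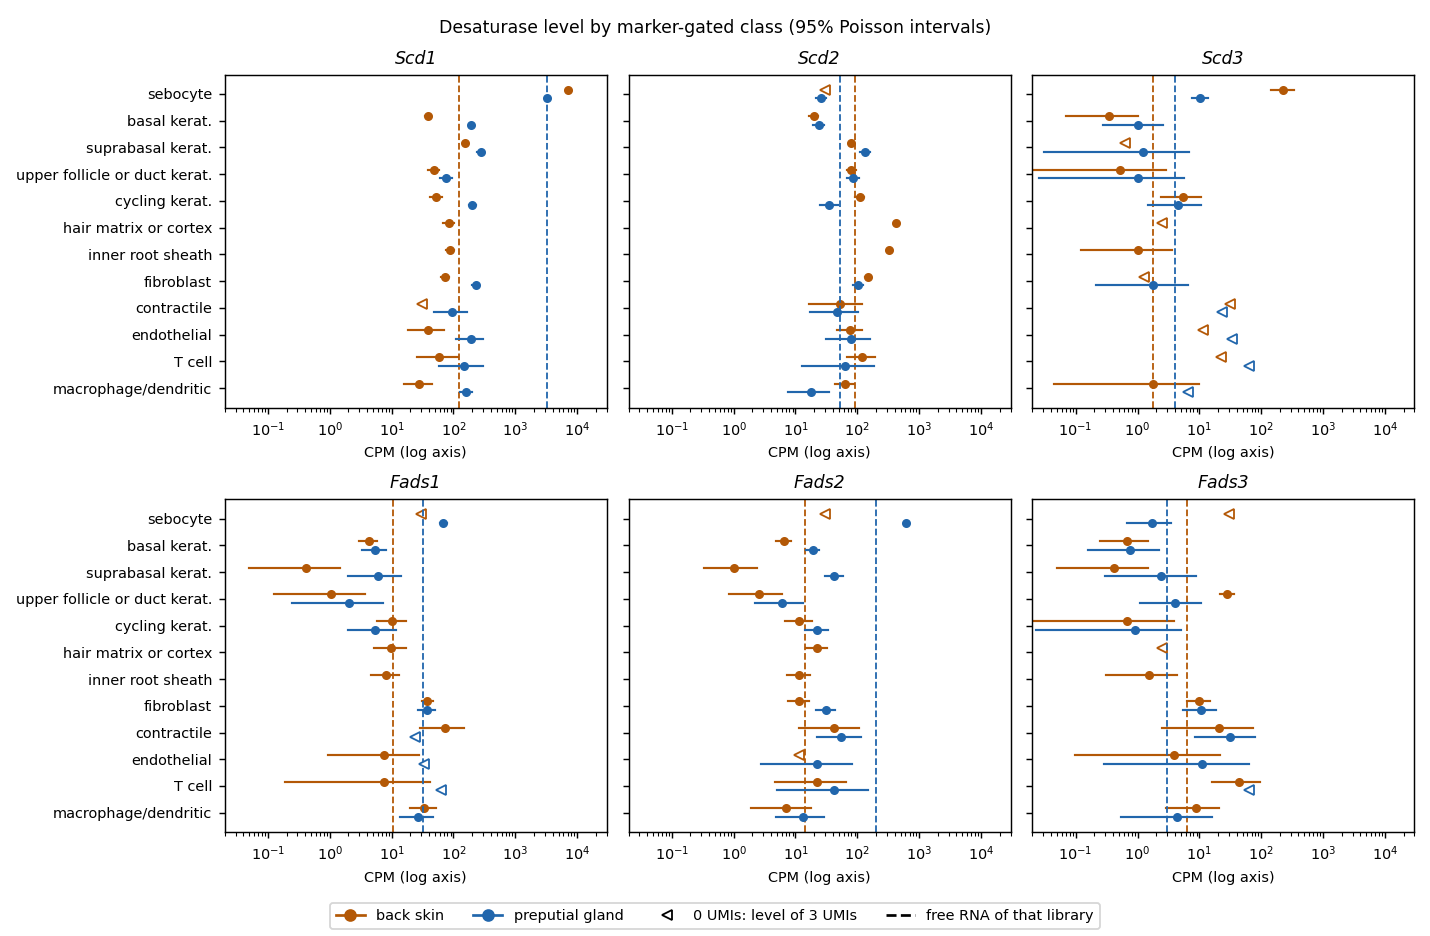
Level of each desaturase (CPM, log axis) by cell class in back skin (orange) and PG (blue), with 95% Poisson intervals; open triangles mark 0 UMIs and stand at the level of 3 UMIs, and dashed lines give the free RNA of each library. *Scd1* is highest in sebocytes of both tissues (7154 and 3295 CPM), *Fads1* and *Fads2* stand at 68.9 and 619 CPM in PG sebocytes and at 0 UMIs in skin sebocytes, and *Scd2* is highest in the hair matrix or cortex of skin (428 CPM).

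*Fads2*, which catalyses the first desaturation of polyunsaturated chains and in human SG makes the sebum acid sapienate, was detected in the sebocytes of 1 tissue only. In sSEB it had 0 UMIs in 19 cells, for which a bound of 29.9 CPM (3 counts) was used. The exact 95% upper limits are 36.8 CPM and 17.6% of cells with a UMI. In pSEB it had 2573 UMIs in 482 cells, a level of 619 CPM (596 to 644), 20.7-fold the 3-count bound. The lower 95% limit of the log2 ratio is 4.07. Per cell it ranged from 0 over a median of 275 to 4516 CPM in pSEB. *Fads1*, which acts later on polyunsaturated chains, had 0 UMIs in sSEB and 286 UMIs in 159 pSEB. This is a level of 68.9 CPM (61.1 to 77.3), 2.3-fold the 3-count bound. The lower 95% limit of the log2 ratio is 0.90, which lies under 2-fold. In the Leiden clusters used above for *Scd1*, *Fads2* again had 0 UMIs on the skin side, with a log2 ratio of at least 6.22. *Fads1* had 1 UMI there (4.44 CPM, 0.112 to 24.7) against 236 UMIs in PG (111 CPM, 97.6 to 126), a log2 ratio of 4.65. With each cell thinned to 1000 UMIs the bound for *Fads2* fell to a log2 ratio of 1.80, since fewer sSEB UMIs remain to set it, and for *Fads1* no bound above 0 was left there or at a mitochondrial limit of 5%.

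*Scd2*, the form known from brain and other non-hepatic tissue, and *Fads3*, which desaturates sphingoid bases, were low in sebocytes. *Scd2* had 0 UMIs in sSEB and 108 UMIs in 72 pSEB, a level of 26 CPM (21.3 to 31.4). *Fads3* had 0 UMIs in sSEB and 7 UMIs in 7 pSEB, a level of 1.69 CPM. Both levels in pSEB lie under the 29.9 CPM that 0 counts allow in sSEB, so a difference was not detectable at this depth. *Scd3*, known from skin and the Harderian gland, had 23 UMIs in sSEB, all in 1 of the 19 cells, and 43 UMIs in 36 pSEB with at most 2 in any cell. The pooled levels of 229 and 10.4 CPM give a log2 ratio of -4.47 (-5.23 to -3.67) that rests on this 1 sSEB. Without it 0 UMIs remain in sSEB and no ratio can be given.

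Of the 6 members, 4 reached 50 CPM in sebocytes of either tissue and entered a count at 2-fold: *Fads1* and *Fads2* were higher in pSEB, and *Scd1* and *Scd3* lower. Over all 2953 genes that reached 50 CPM, 17.9% were at least 2-fold higher in pSEB and 20.1% at least 2-fold lower, with a median log2 ratio of -0.09. *Fads1* and *Fads2* passed the 50 CPM through pSEB alone and *Scd3* through sSEB alone.

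**Figure D2:**
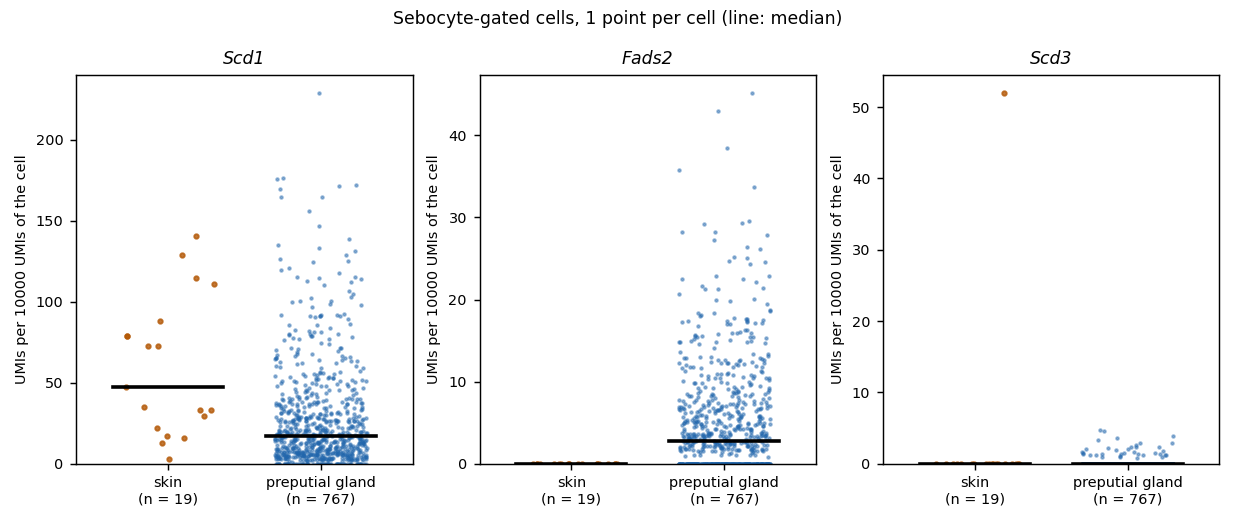
UMIs per 10000 UMIs of a cell for *Scd1*, *Fads2* and *Scd3*, 1 point for each sebocyte-like cell of skin (n = 19) and PG (n = 767), with the median as a line. *Scd1* overlaps between tissues, *Fads2* has no UMI in any skin cell, and the skin UMIs of *Scd3* come from 1 cell.

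Among the stearoyl-CoA desaturases, *Scd1* made up 96.9% (95.4 to 98.0) of the summed UMIs in sSEB and 98.9% (98.7 to 99.1) in pSEB. This share does not depend on the total used for scaling, although it compares counted molecules of different genes. *Scd1* took 66.0% in basal and 66.1% in suprabasal keratinocytes of skin. Toward the hair-forming cells *Scd2* took over, with 78.5% (75.5 to 81.3) in the inner root sheath and 83.6% (80.5 to 86.4) in the hair matrix or cortex. Skin fibroblasts held 66.5% *Scd2*, and PG fibroblasts 31.1%. *Scd3* took 3.1% in sSEB and 3.29% in cycling keratinocytes of skin, and at most 1.87% in the PG classes. The 3.1% in sSEB came from 1 cell, and no other sSEB held a *Scd2* or *Scd3* UMI.

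**Figure D3:**
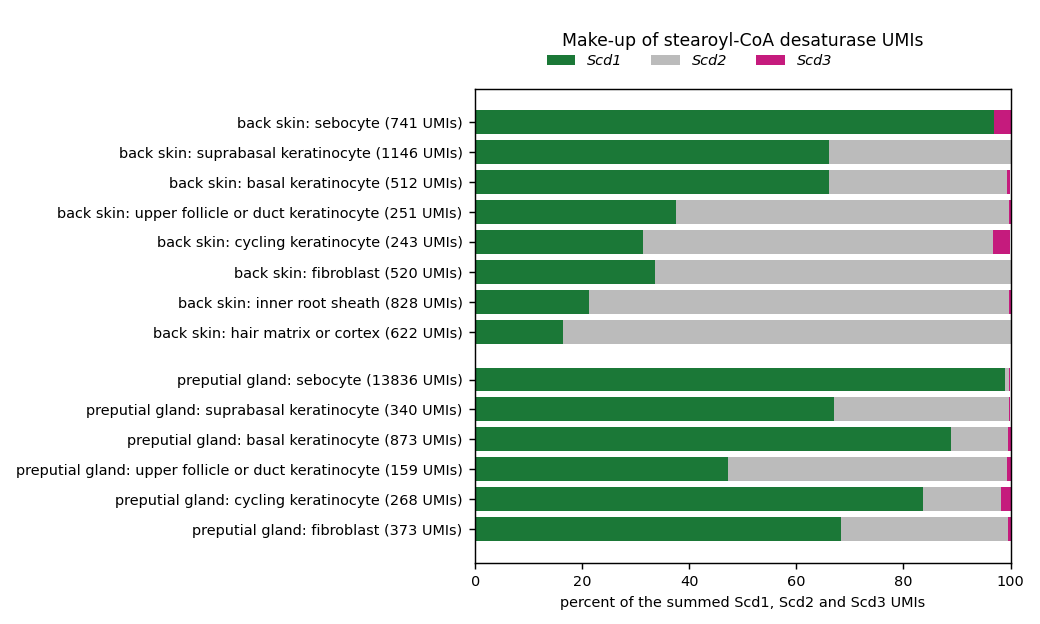
Make-up of the summed *Scd1*, *Scd2* and *Scd3* UMIs in percent for the larger cell classes of back skin (above) and PG (below), with the summed UMIs in brackets. *Scd1* fills 96.9% of the bar in skin sebocytes, the rest being *Scd3* UMIs of 1 cell, and 98.9% in PG sebocytes. *Scd2* fills 83.6% in the hair matrix or cortex.

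The sebocyte pattern was also compared with basal keratinocytes of the same library, where tissue and library are shared. In skin, *Scd1* rose from 38.8 CPM in 3244 basal keratinocytes to 7154 CPM in sSEB, a log2 ratio of 7.53 (7.34 to 7.72). *Scd3* had 3 UMIs in the basal cells, and its log2 ratio of 9.38 again rests on 1 sSEB. These are the 2 of 6 members that reached 50 CPM here, and both were over 2-fold higher. Both reached 50 CPM through sSEB alone and had to be higher, so nothing is read from this count beside the 26.5% of all genes counted that were over 2-fold higher and the 20.5% lower. The other 4 members had 0 UMIs in sSEB and no ratio.

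In PG, 3 of the 6 members reached 50 CPM, and all 3 were over 2-fold higher in pSEB than in 1442 basal keratinocytes; 11.6% of all genes counted were, and 9.94% were over 2-fold lower. *Fads1* and *Fads2* reached 50 CPM through pSEB alone and had to be higher, so the count is a description. *Scd1* stood at 195 and 3295 CPM, a log2 ratio of 4.08 (3.97 to 4.18). *Fads2* stood at 18.9 and 619 CPM, a log2 ratio of 5.03 (4.70 to 5.38). *Fads1* stood at 5.3 and 68.9 CPM, a log2 ratio of 3.70 (3.06 to 4.41). *Scd2* was at like levels in both, 23.7 and 26 CPM, with a log2 ratio of 0.13 (-0.28 to 0.55). *Scd3* went from 1.01 to 10.4 CPM (log2 ratio 3.36, 1.90 to 5.30), and *Fads3* from 0.757 to 1.69 CPM (1.16, -0.98 to 3.74). Between the groups, all genes counted had a median log2 ratio of 0.04.

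Within PG, sebocytes were first split by their basal keratinocyte markers. Cells with under 10 basal keratinocyte UMIs per 10000 (keratin-low, 289 cells) were set beside the rest (keratin-positive, 478 cells). *Scd1* stood at 4290 CPM in the keratin-low and 2588 CPM in the keratin-positive cells (log2 ratio 0.73, 0.68 to 0.78). *Fads2* stood at 816 and 480 CPM (0.77, 0.65 to 0.88), and *Fads1* at 82.3 and 59.3 CPM (0.47, 0.13 to 0.82). The sebocyte markers did not go one way over this split. *Soat1* stood at 321 and 203 CPM (0.66, 0.48 to 0.84) and *Cidea* at 635 and 517 CPM. In the other direction, *Awat2* stood at 468 and 867 CPM (-0.89, -1.01 to -0.77) and *Pparg* at 39.4 and 67.9 CPM (-0.79, -1.21 to -0.37). Of the 2105 *Awat2* UMIs of the keratin-positive cells, 392 lay in 1 cell. None of the members reached 2-fold, which 0.427% of all genes counted did upward and 2.13% downward. *Scd2* (0.28, -0.30 to 0.85) and *Scd3* (-0.71, -1.78 to 0.27) had intervals that span 0. For *Fads1* the direction was not stable, with -0.04 with a gate of 50 marker UMIs per 10000 and -0.17 in the Leiden cluster, where *Scd1* and *Fads2* stood at 0.12 and 0.09. In skin the same split left 7 keratin-low and 12 keratin-positive cells, with *Scd1* at 7735 and 6948 CPM (0.15, -0.09 to 0.39). Of 2 members with 50 CPM there, *Scd3* was over 2-fold higher in the keratin-low cells through its 1 cell, as were 24.1% of all genes counted, with 10.5% over 2-fold lower.

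A split by *Awat2* gave wider differences. The 50 pSEB with at least 5 *Awat2* UMIs per 10000 held *Scd1* at 10752 CPM, against 2615 CPM in the other 717 (log2 ratio 2.04, 1.98 to 2.09). *Fads2* stood at 1917 and 501 CPM (1.94, 1.81 to 2.06). *Fads1* stood at 285 and 49.1 CPM (2.54, 2.17 to 2.90). On this scale *Fads1*, with the fewest UMIs of the 3, differed most. *Scd2* stood at 40.4 and 24.7 CPM (0.71, -0.22 to 1.53), and *Scd3* had 0 UMIs in the *Awat2*-high cells against 43 in the others. With at least 50 CPM in either group, 3 of 6 members entered the count and all 3 were over 2-fold higher, *Fads1* having entered through the *Awat2*-high cells alone. Of all genes counted, 14.2% were over 2-fold higher and 13.9% over 2-fold lower. None of the 19 sSEB reached this *Awat2* level, so *Awat2*-high cells could not be compared between the tissues. Against the 2615 CPM of the *Awat2*-low pSEB, the sSEB stood at 7154 CPM of *Scd1*.

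**Figure D4:**
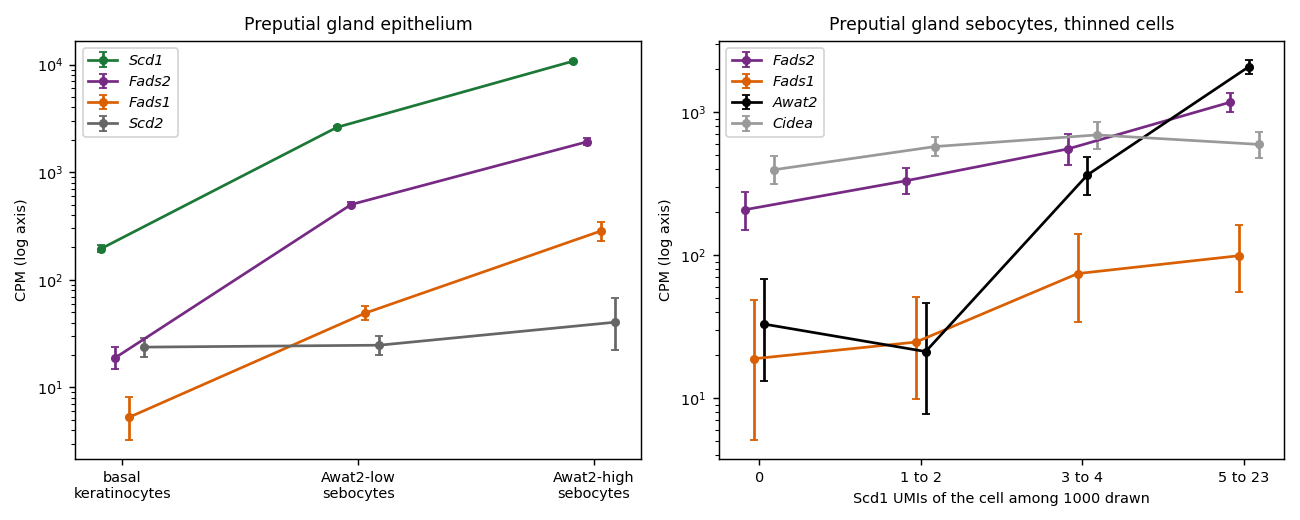
Left, level (CPM, log axis, 95% Poisson intervals) of 4 desaturases in basal keratinocytes, *Awat2*-low and *Awat2*-high sebocytes of PG. Right, *Fads2*, *Fads1*, *Awat2* and *Cidea* in PG sebocytes thinned to 1000 UMIs and grouped by their *Scd1* UMIs. *Scd1* runs from 195 over 2615 to 10752 CPM and *Fads2* from 18.9 over 501 to 1917 CPM, while *Scd2* stays between 23.7 and 40.4 CPM; lines join group values and are no time course.

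To see whether the desaturases vary together from cell to cell, every pSEB was thinned to 1000 UMIs and placed in 1 of 4 groups by its *Scd1* UMIs (0, 1 to 2, 3 to 4, and 5 to 23). *Fads2* stood at 208 CPM in the 212 cells without *Scd1* UMIs, at 332 and 554 CPM in the middle groups and at 1172 CPM (1006 to 1358) in the 151 cells of the top group. *Fads1* stood at 18.9, 24.7, 74.4 and 99.3 CPM. *Awat2* stood at 33, 21.2, 364 and 2086 CPM, so it was higher only in cells with over 2 *Scd1* UMIs, whereas *Fads2* increased in the order of the groups. *Cidea* had no such order, with 396, 576, 694 and 596 CPM, and the basal keratin *Krt5* went the other way, from 363 CPM without *Scd1* UMIs to 16.5 and 26.5 CPM in the upper groups. Over the 767 cells Spearman's rho was 0.339 for *Scd1* with *Fads2* and 0.145 for *Scd1* with *Fads1*, beside 0.295 for *Scd1* with *Awat2* and 0.137 for *Scd1* with *Cidea*. These are descriptions over cells of 1 library, which share its depth and its free RNA.

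Outside the sebocytes, *Scd1* was highest in suprabasal keratinocytes of skin, at 156 CPM (145 to 168), which was 4.03-fold the level in basal keratinocytes. Melanocytes (122 CPM), inner root sheath (88.6), hair matrix or cortex (84), fibroblasts (74.2) and basal keratinocytes (38.8) followed in this order with other classes between them, and each lay within counting error of the next class in the order of levels. In PG the order after the sebocytes was suprabasal keratinocytes (275 CPM), fibroblasts (228), cycling keratinocytes (201) and basal keratinocytes (195). Of the 228 suprabasal UMIs in PG, 102 lay in 1 cell, and without it the level was 154 CPM, under that of the other 3 classes.

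*Scd1* levels were higher in PG than in skin in each of the 9 other classes found in both with at least 26 cells, but in 2 of them this lay within counting error or rested on 1 cell. For T cells the interval of the log2 ratio spanned 0 (1.30, -0.40 to 2.96). For suprabasal keratinocytes the log2 ratio was 0.82 (0.60 to 1.03) and, without the cell with most *Scd1* UMIs in each tissue, 0.01 (-0.28 to 0.28). The log2 ratio was 2.33 (2.15 to 2.52) in basal keratinocytes, 1.62 (1.33 to 1.90) in fibroblasts and 2.52 (1.73 to 3.40) in macrophages or dendritic cells. The free RNA differs in the same direction: it held 3281 CPM of *Scd1* in PG and 121 CPM in skin. In PG, these 9 classes stood at 2.34% to 8.4% of their free RNA level. The sebocyte gene *Awat2* stood at 1.16% of its free RNA level in PG fibroblasts, where *Scd1* stood at 6.94% and *Fads2* at 15.5%. The shares of the genes are thus unequal, and the part of free RNA in these levels was not tested gene by gene. In cells without any *Awat2* or *Cidea* UMI, *Scd1* was 226 CPM in PG fibroblasts and 187 CPM in PG basal keratinocytes. These were 642 of 658 and 1335 of 1442 cells. Since nearly all cells were kept, this does not test the part of free RNA. After thinning, 16.4% of PG fibroblasts and 72.4% of pSEB held a *Scd1* UMI (25.2% and 91.7% before, at medians of 1380 and 5129 UMIs). The share of free RNA was estimated from fibroblast genes at 6.06% in pSEB and 2.34% in basal keratinocytes, and from macrophage genes at 1.85% and 4.81%, so these estimates differ in order. In PG basal keratinocytes *Awat2* stood at 2.38% of its free RNA level, near the first estimate and under the second. With free RNA subtracted, the log2 ratio of pSEB over basal keratinocytes went from 4.08 to 4.76 (fibroblast genes) or 6.39 (macrophage genes) for *Scd1* and from 5.03 to 5.47 or 6.02 for *Fads2*. The direction held under both, and the size of these ratios depends on the estimate.

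*Scd2* followed another order, led by the hair-forming cells of skin. It stood at 428 CPM (392 to 467) in 260 cells of the hair matrix or cortex, and at 330, 327 and 312 CPM in cycling cells with low basal keratins, inner root sheath and melanocytes, which lay within counting error of each other. Compared with basal keratinocytes of skin (19.6 CPM), the hair matrix or cortex was higher by a log2 ratio of 4.45 (4.20 to 4.71) and the inner root sheath by 4.06 (3.82 to 4.31). The free RNA of skin held 91.8 CPM, under all of these levels. In PG, suprabasal keratinocytes (134 CPM) and fibroblasts (104 CPM) were highest and within counting error of each other. Basal keratinocytes had like levels in both tissues (log2 ratio 0.27, -0.10 to 0.65). Cycling keratinocytes were lower in PG, with 35 against 109 CPM (-1.64, -2.18 to -1.12), and so were fibroblasts, with 104 against 148 CPM (-0.51, -0.83 to -0.20). *Scd2* in suprabasal keratinocytes was higher in PG (0.74, 0.43 to 1.05).

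Outside the sebocytes, *Fads1* had 280 UMIs over all other skin cells, beside 286 in pSEB. Its highest skin classes were contractile cells (72.2 CPM, 7 UMIs, 29 to 149) and melanocytes (69.4 CPM, 8 UMIs, 30 to 137). Both stood near the 68.9 CPM of pSEB, from few UMIs. The Leiden cluster of skin with melanocyte markers held *Fads1* at 90 CPM (31 UMIs, 61.2 to 128). *Fads1* stood at like levels in fibroblasts of skin (38 CPM, 89 UMIs) and PG (37.5 CPM, 42 UMIs), with a log2 ratio of -0.02 (-0.58 to 0.53), and in macrophages or dendritic cells (33.3 and 26.4 CPM). In skin, fibroblasts stood above basal keratinocytes by a log2 ratio of 3.16 (2.59 to 3.76), and suprabasal keratinocytes had 2 UMIs, a level of 0.413 CPM. *Fads2* in skin stood at 41.3 CPM (4 UMIs, 11.2 to 106) in contractile cells, 26.2 CPM (18 UMIs) in cycling cells with low basal keratins, 22.2 CPM (27 UMIs) in the hair matrix or cortex and 11.5 CPM in fibroblasts, against 14.3 CPM in free RNA. Neighbours in this order lay within counting error. In PG suprabasal keratinocytes it had 35 UMIs (42.3 CPM), of which 15 lay in 1 cell.

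*Fads3* was found in few cells. In the upper follicle or duct keratinocytes of skin it had 55 UMIs (28.3 CPM, 21.4 to 36.9), of which 19 lay in 1 cell. The same class in PG had 4 UMIs (4.09 CPM), lower by a log2 ratio of -2.79 (-4.72 to -1.36). Fibroblasts had 9.81 CPM in skin and 10.7 CPM in PG. In Leiden clusters made without the members, 52 of the 121 *Fads3* UMIs of skin fell into 1 cluster of 19 cells led by *Krt75*, a keratin of the HF companion layer, and *Tm4sf1*, at 336 CPM. Its median of 7508 UMIs per cell was above that of any other cluster of either library.

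The same clusters gave a place to the other members. In skin, a cluster of 200 cells led by *Slc7a8* and *Gjb2* held *Fads2* at 176 CPM and *Fads1* at 95.1 CPM, the highest levels of both in any skin cluster, with *Scd1* at 36.6 CPM. It stood at 172 CPM for *Scd2*. That gene was highest in the clusters led by *Krtap8-1* and *Krt35* (400 CPM), by *Cldn10* and the cycling gene *Pclaf* (370 CPM) and by *Gpnmb* (361 CPM). In PG, *Scd1* and *Fads2* were highest in the *Awat2* cluster (327 cells, 5345 and 990 CPM) and next in one led by *Cyp2f2* and *Cidea* (383 cells, 1465 and 294 CPM). *Fads1* stood at 111 CPM in the *Awat2* cluster, and at 126 CPM (26 to 369) from 3 UMIs in a fibroblast cluster of 19 cells led by *Col3a1*. *Scd1* stood at 810 CPM (291 UMIs) in a cluster of 133 cells led by *Sfrp2* with fibroblast markers, above the other fibroblast clusters of PG. All 658 PG cells of the fibroblast class held 255 *Scd1* UMIs, fewer than this cluster. Part of its *Scd1* UMIs thus lay in cells outside the fibroblast class.

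*Scd3* UMIs were gathered in single cells of skin and spread in PG. Skin had 85 UMIs in 16 cells, of which 44 lay in 1 cell without a class, 23 in the 1 sSEB and 5 in a cycling keratinocyte. The cell with 44 *Scd3* UMIs held 3 *Scd1* UMIs among 7243, and the sSEB with 23 held 49 *Scd1* UMIs among 4426. PG had 58 UMIs in 48 cells, at most 2 per cell.

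Some genes had a pattern over classes like that of a desaturase. By Pearson's r of log2(CPM + 10) over the 23 class and tissue groups with at least 30 cells, the genes most like *Scd1* were *Idi1*, an isomerase of the mevalonate pathway (0.917), *Tmem97*, a membrane protein of sterol handling (0.898), *Echdc1* (0.871), *Reep6* (0.859) and *Hibadh* (0.859). Most like *Fads2* were *Lhpp* (0.870), *Acbd7*, an acyl-CoA binding protein (0.846), *Slc25a1*, the mitochondrial citrate carrier (0.836), *Rmdn3* (0.824) and *Agps*, a peroxisomal enzyme of ether lipid synthesis (0.816). *Scd2* was followed most closely by *Ap2a1* (0.798) and *Armc1* (0.794), and *Fads1* by *Tmco1* (0.758) and *Hgsnat* (0.757). *Scd3* and *Fads3* reached 50 CPM in no group of at least 30 cells and were left out. The 19 sSEB fell under the limit of 30 cells, so pSEB was the only sebocyte group. Within each library the order differed. Over skin groups alone *Mvk* was most like *Scd1* (0.880), and over PG groups alone *Ppa1* (0.984). The groups share 2 libraries, so these values are descriptions.

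The enzymes around the desaturases were set beside them in sebocytes, as PG over skin, where 17.9% of all genes counted were at least 2-fold higher and 20.1% lower. The electron donors were measured in both: of 6, 3 reached 50 CPM and 1 was over 2-fold lower in pSEB, the cytochrome *Cyb5a*, with 222 against 638 CPM (log2 ratio -1.52, -1.89 to -1.13). The outer mitochondrial cytochrome *Cyb5b* stood at 202 and 239 CPM (-0.25, -0.83 to 0.41), and the reductase *Cyb5r3* at 134 and 179 CPM (-0.42, -1.09 to 0.35). *Cyb5r1* (27.2 and 9.96 CPM) and *Cyb5r4* (20 and 39.9 CPM) were low, and *Cyb5r2* had 0 UMIs in both. Of 7 other desaturases, 3 reached 50 CPM, with 1 higher and 2 lower: the sterol enzyme *Msmo1* (231 against 1405 CPM, -2.61, -2.86 to -2.34), the ceramide desaturase *Degs1* (-1.21, -2.23 to 0.03) and the plasmanylethanolamine desaturase *Tmem189* (1.06, -0.18 to 2.69). *Degs1* reached 50 CPM through sSEB alone and *Tmem189* through pSEB alone. *Scd4* had 0 UMIs in both.

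Of 17 genes for fatty acid synthesis and elongation, which supply the desaturases, 12 reached 50 CPM, with 1 at least 2-fold higher and 6 lower in pSEB, beside 17.9% and 20.1% of all genes (median log2 ratio -0.95, over all genes -0.09). Of the 6 lower, *Elovl3*, *Elovl4*, *Elovl5*, *Elovl6* and *Acacb* reached 50 CPM through sSEB alone and had to be lower. *Acaca* (2 UMIs in sSEB) reached it through pSEB alone and had to be higher, so the count and its median are descriptions. The elongases stood farthest apart. *Elovl4* stood at 0.241 CPM in pSEB and 2461 CPM in sSEB (-13.32, -18.63 to -10.83), and *Elovl6*, which lengthens palmitate, at 2.17 and 4364 CPM (-10.98, -12.11 to -10.04). *Elovl3* stood at 5.3 and 299 CPM (-5.82), and *Elovl5*, which lengthens products of *Fads2*, at 7.46 and 239 CPM (-5.00). *Elovl5* and *Fads2* thus stood in opposite directions.

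Of 12 regulators, 7 reached 50 CPM, with 2 higher and 2 lower, few genes to set against 17.9% and 20.1% of all genes. *Srebf1*, whose product activates desaturase genes, stood at 353 and 169 CPM (1.06, 0.38 to 1.84), and *Scap*, which escorts it, at 197 and 69.7 CPM (1.5, 0.45 to 2.81). The retention proteins *Insig2* (27.4 and 149 CPM, -2.45) and *Insig1* (59.2 and 189 CPM, -1.68) were lower in pSEB. *Insig2* reached 50 CPM through sSEB alone. Of 13 users of acyl-CoA, 10 reached 50 CPM, with 3 higher and 6 lower. *Mboat2* and *Acsl1* reached it through pSEB alone, and *Dgat1*, *Awat1*, *Lpcat3* and *Acsl3* through sSEB alone. The users past 2-fold include the wax synthase *Awat1* (0 against 89.7 CPM), the ligase *Acsl3* (12.5 and 159 CPM, -3.67), the lysophospholipid acyltransferase *Lpcat3* (28.4 and 259 CPM, -3.19) and *Awat2* (3.14), the last of which belongs to the gate.

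**Figure D5:**
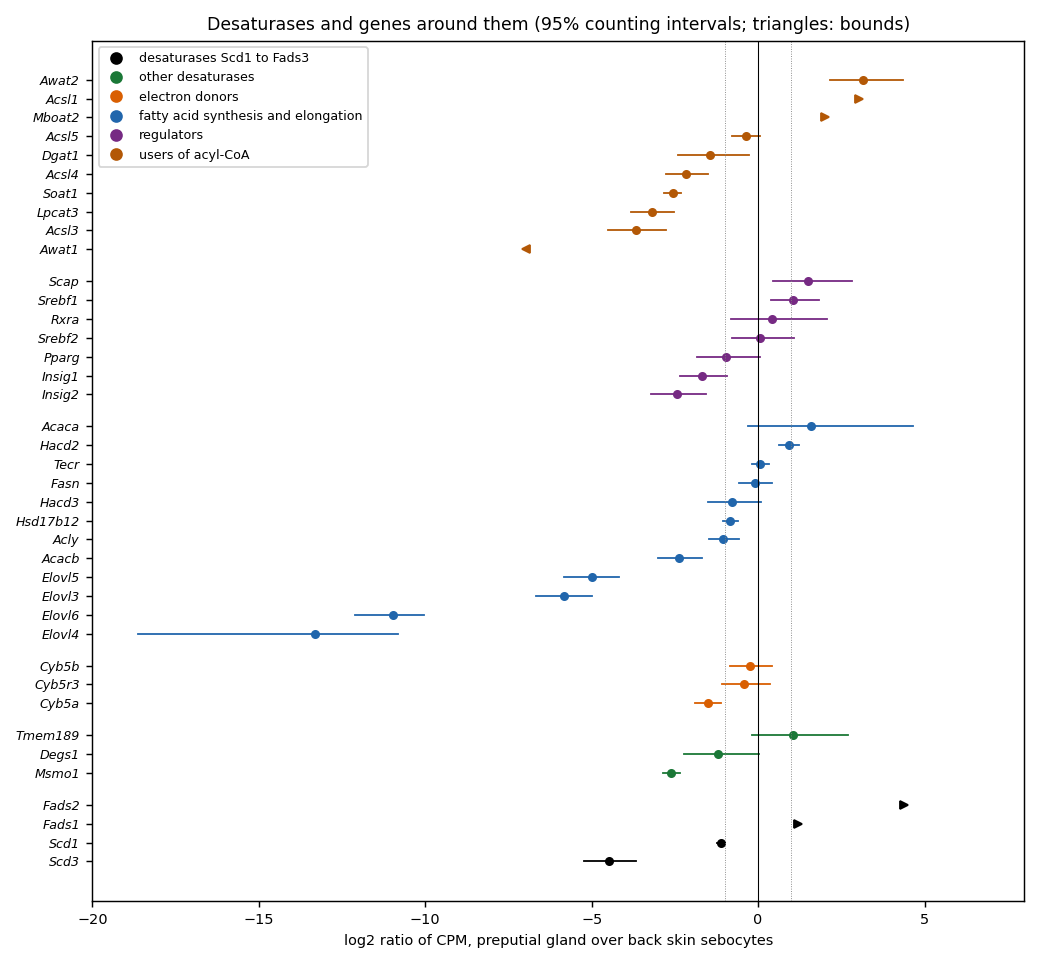
Log2 ratio of CPM, PG over back skin sebocytes, for the members and the listed genes around them that reached 50 CPM in either tissue, with 95% counting intervals; triangles are bounds against 0 UMIs and dotted lines mark 2-fold. *Fads2* and *Fads1* lie to the right with *Awat2*, *Acsl1* and *Mboat2*, *Scd1* lies at -1.12, and the elongases *Elovl3* to *Elovl6* lie at -5.00 and below.

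The same lists were read within PG, in *Awat2*-high over *Awat2*-low sebocytes, where the library is shared. Of all genes counted, 14.2% were at least 2-fold higher and 13.9% lower. Users of acyl-CoA were at least 2-fold higher in 7 of 8 genes that reached 50 CPM, with *Awat2*, which made the split, among the 7. Of these, *Awat2*, *Dgat1*, *Lpcat3* and *Acsl4* reached 50 CPM through the *Awat2*-high cells alone and had to be higher, and *Soat1* belongs to the gate. Synthesis and elongation genes were higher in 6 of 10, with 1 lower. Among them, *Acacb* and *Hacd1* reached 50 CPM through the *Awat2*-high cells alone, and the lower *Hacd3* through the *Awat2*-low cells alone. These counts are descriptions. Among the electron donors *Cyb5r3* was higher (log2 ratio 1.71, 1.41 to 2.0), *Cyb5b* stood at 0.96 (0.67 to 1.23), and *Cyb5a* was lower (-2.46, -3.31 to -1.73). Of 7 other desaturases, 3 reached 50 CPM and all 3 were higher: *Tmem189* (3.65), *Msmo1* (2.46) and *Fads6* (1.44). *Fads6* reached 50 CPM through the *Awat2*-high cells alone. Of 6 regulators that reached 50 CPM, 1 was higher and 2 lower. *Insig1* was higher (2.01, 1.58 to 2.42) and reached 50 CPM through the *Awat2*-high cells alone. *Cyb5a* and *Pparg* reached it through the *Awat2*-low cells alone. *Srebf1* (-1.56, -2.03 to -1.13) and *Pparg* (-1.36, -2.59 to -0.35), which belongs to the gate, were lower in the cells in which *Scd1* and *Fads2* were higher.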

How the data were processed

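Single cells of back skin and PG were measured with droplet libraries, and the kit named for both reads transcript 3′ ends. The authors deposited UMI counts per gene and barcode, made with Cell Ranger 4 on mm10, unnormalized and for every listed barcode. The annotation release is not given in the sources used here. The deposited counts were summed by cell class and scaled to CPM. Gate limits were set after seeing the data, and the members, gene lists and comparisons were chosen with earlier results of these data known. Cells that met the gates of more than 1 lineage (64 in skin, 68 in PG) were set aside, and removal of high Scrublet scores was an alternative. No test was run, since cells are not replicates. A count of 0 was given a bound of 3 counts, and a bound that did not pass 1 is not printed. In counts at 2-fold, genes needed 50 CPM in either group. The named genes are the members, the electron donors, the genes of each list with the largest ratios, up to 4, and the 5 genes most alike. Leiden clusters (scanpy 1.11.5, leidenalg 0.10.2) left out the members and listed genes. Positions are from GENCODE on GRCm38 and promoter windows from RefSeq. Python 3.11.15, numpy 2.4.6 and scipy 1.17.1 were used. The code for gates and intervals was run on simulated counts. These were drawn from the summed profiles of the gated classes, without variation between cells beyond depth and sampling. This checks the code and does not test the gates or the intervals on real cells.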

Additional observations from a re-analysis of the deposited data

How the results depend on the processing

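Of 280 values under alternative settings, 223 stayed within the counting interval of the reported value in the same direction, 49 moved and 8 turned, all as log2 ratios of CPM unless named. The 280 leave out settings in which no ratio or bound could be given. For PG over skin sebocytes these include *Fads1* at a mitochondrial limit of 5% and in thinned cells, and *Scd3* without the cell with most UMIs. PG over skin sebocytes: *Scd1* was -1.66 at a mitochondrial limit of 5%, 0.65 in Leiden clusters, -0.62 at a gate of 12.5 marker UMIs per 10000 in place of 25, -1.01 with a denominator free of mitochondrial, ribosomal protein and desaturase UMIs and -1.0 without the cell with most UMIs. *Scd3* was -2.80 in Leiden clusters and -5.56 in thinned cells. The bound for *Fads2* was 3.33 at the limit of 5%, 1.80 in thinned cells and 4.07 as the mean of per-cell CPM. Keratin-low over keratin-positive: *Scd1* was 0.80 at the limit of 5% and again at 20%, 0.12 in Leiden clusters, 0.34 at a gate of 50 and 1.06 at a gate of 12.5, 0.78 thinned and 0.87 as the per-cell mean. *Fads2* was 0.90 at 5%, 0.09 in Leiden clusters, 0.33 at a gate of 50, 1.11 at 12.5, 1.04 thinned and 0.95 as the per-cell mean. *Fads1* was -0.17 in Leiden clusters, -0.04 at a gate of 50, 0.82 at 12.5 and 0.82 as the per-cell mean. *Scd2* was -0.30 at 5%, -0.03 in Leiden clusters and 1.5 thinned, and *Fads3* 0.59 as the per-cell mean. Sebocytes over basal keratinocytes: in skin, *Scd1* was 6.18 and *Scd3* 7.07 in Leiden clusters, and *Scd1* 7.81 at a gate of 50 and 6.85 at 12.5. In PG, *Scd1* was 3.95 with at least 1000 genes and 2000 UMIs, 3.63 at 5%, 5.48 in Leiden clusters, 3.92 at a gate of 12.5, 3.85 thinned, 3.81 as the per-cell mean and 4.76 or 6.39 with free RNA subtracted by fibroblast or macrophage genes. *Fads2* was 4.50 at 5%, 6.47 in Leiden clusters, 4.66 as the per-cell mean and 5.47 or 6.02 with free RNA subtracted likewise, *Fads1* 4.46 and *Scd2* 0.92 in Leiden clusters, and *Scd2* -0.05 at a gate of 12.5 and -0.01 as the per-cell mean. Free RNA of PG: barcodes with 1 to 20 UMIs held *Scd1* at 1768, *Fads2* at 131, *Scd2* at 40.2 and *Scd3* at 0 CPM, and those with 51 to 100 UMIs *Scd1* at 2912 CPM.

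The causes of these moves were not tested. The Leiden values for PG sebocytes came from the *Awat2* cluster alone. No paired analysis was possible because each tissue has 1 library. The planned subtraction of free RNA by sebocyte genes kept out of the gate was not run, since these genes have few or no UMIs in free RNA or are found in all keratinocytes; it was replaced by shares from fibroblast or macrophage genes (PG) and skeletal muscle or fibroblast genes (skin). This, the settings without the top cell, and all settings for sebocytes over basal keratinocytes were chosen after seeing the data. The 19 sSEB hold 100363 UMIs, which limits each statement on genes at 0 there.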

Other observations

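Barcodes that passed the limits on genes and UMIs but held over 10% mitochondrial UMIs were left out of every class. In skin these were 232 barcodes, in which *Scd1* stood at 693 CPM (610 to 784), *Scd2* at 449 CPM (383 to 524) and *Scd3* at 60.3 CPM (37.8 to 91.3), against 101, 115 and 3.1 CPM in all kept skin cells. In PG these were 662 barcodes, in which *Scd1* stood at 2494 CPM (2420 to 2570) and *Fads2* at 365 CPM (337 to 395), against 1087 and 195 CPM in all kept PG cells. *Awat2* had 0 UMIs in the skin barcodes and stood at 196 CPM in those of PG.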
